A study of Mus musculus with 52 samples.

Results

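Genes of glycolysis, pyruvate entry into mitochondria, lactate handling and glycogen were followed through mouse brain tissue and cultured astrocytes. The set holds 35 genes, matched by gene name in the 4 deposited expression tables, which list 34042, 53700, 55487 and 55487 genes. All 35 names were found in every table, in 36 rows, because the name Aldoa stands on a second, weakly expressed row; the main Aldoa row is used throughout. The rule used gene names alone, and no measured value.

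Glycolysis splits glucose into pyruvate, which is reduced to lactate by lactate dehydrogenase or carried into mitochondria and oxidised by the pyruvate dehydrogenase complex. In brain, astrocytes hold most of the glycogen and are known as exporters of lactate, while neurons are known to take lactate up. Several steps are served by isoforms with different properties, among them the lactate dehydrogenase A and B subunits, the liver, muscle and platelet phosphofructokinases, aldolases A and C, and the monocarboxylate transporters MCT1 (Slc16a1), MCT2 (Slc16a7) and MCT4 (Slc16a3).

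RNA was sequenced from 27 astrocyte libraries and 25 brain libraries, all of strain C57BL/6. Astrocytes labelled wild type were untreated, or were given medium conditioned by neurons, medium conditioned by APOE KO (apolipoprotein E knockout) neurons, oleic acid or palmitic acid. Astrocytes labelled APOE KO were untreated, or were given neuron-conditioned medium, oleic acid or palmitic acid. Each of these 9 groups held 3 libraries. Brain came from mice of a KA-induced TLE model (kainic acid, temporal lobe epilepsy) and of a CNO-induced epileptic model (clozapine-N-oxide, a ligand used with engineered receptors). The first KA cohort and the CNO cohort each held 3 untreated and 3 treated libraries. The second KA cohort held 3 untreated libraries, 4 KA libraries, 3 KA libraries labelled as an APOE knock out and 3 labelled as an A2aR knock down (an adenosine receptor, gene Adora2a). Doses, times, ages, brain region, the receptor used with CNO and the means of the knock down were not given in the labels. Nothing says that replicates came from separate cultures or animals, so the p-values measure the spread between these libraries. The titles of untreated APOE KO library 3 and palmitic acid APOE KO library 3 carry the word mix, which is not explained. The titles of all 3 conditioned medium groups carry the letters KA, also unexplained, so whether kainic acid was part of those treatments is not known.

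Levels are in TPM, a measure of transcript abundance that is scaled to gene length and library size. Each library's TPM values sum to nearly the same total (978422 to 999897 here), so a level is in effect a share of RNA. Differences are on the log2(TPM + 1) scale with their standard errors. A gene passed the test, and is said to have risen or fallen, at an adjusted p under 0.05 over all genes tested (limma, Benjamini-Hochberg); in the second KA cohort the test ran on counts (edgeR).

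Apoe was at 5.36 to 118 TPM in APOE KO astrocytes and at 2221 to 5024 TPM in wild-type astrocytes. Its mean differed between the APOE KO groups: 43.7 TPM untreated, 114.5 with neuron-conditioned medium, 70.9 with oleic acid and 6.85 with palmitic acid. Adora2a was at 1.75 to 2.15 TPM in the libraries labelled A2aR knock down and at 1.32 to 2.90 TPM in the KA libraries, so the ranges overlap and the label could not be checked. The astrocyte cultures also carried markers of other cells. The summed level of 8 astrocyte markers was 1880.0 to 2118 TPM in untreated wild-type cells, 996 to 1023 with oleic acid, 599.8 to 741 with palmitic acid, 429 to 441 in untreated APOE KO cells, 997 to 1092 in APOE KO cells with neuron-conditioned medium, 424 to 431 with oleic acid and 35.8 to 49.6 with palmitic acid. Mural and fibroblast markers reached 7187 to 7873 TPM in untreated wild-type cells, 3718 to 4197 with oleic acid and 3166 to 3514 with palmitic acid. In APOE KO cells they stood at 6161 to 6268 TPM untreated, 6223 to 7155 with neuron-conditioned medium, 4238 to 4934 with oleic acid and 929 to 1048 with palmitic acid. Microglial markers were at 362 to 394 TPM in untreated wild-type cells, 621 to 663 with oleic acid, and 675 to 752 with palmitic acid. In APOE KO cells they were at 297 to 321 TPM untreated, 241 to 245 with neuron-conditioned medium, 738 to 814 with oleic acid and 99.2 to 105 with palmitic acid. Among sex-linked genes, mean Ddx3y (Y-linked) was at 17.6 TPM in untreated wild-type cells, 1.05 with oleic acid and 3.78 with palmitic acid, and mean Xist, the RNA of the inactive X, was at 34.6, 11.7 and 18.3 TPM in the same groups, so both were lower with either fatty acid. In APOE KO cells Ddx3y was at 32.3 TPM untreated, 26.1 with neuron-conditioned medium, 14.8 with oleic acid and 9.15 with palmitic acid, and Xist at 3.18, 8.06, 2.34 and 0.023 TPM. Fewer cells of a type and less RNA per cell cannot be told apart in these bulk libraries, and the part of cell mix and of sex in the differences below was not tested.

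Promoters are shown for 4 of the lactate and hexokinase genes described below. They were searched for ACGTG and GCGTG, the cores bound by hypoxia-inducible factors, since Ldha, Hk2 and Slc16a3 are known targets of these factors; the members and the hypoxia-induced genes described below moved in both directions. The windows are the 250 bases before the start site (RefSeq, GRCm38.p6), written 5′ to 3′ along the gene, with each core on either strand in capitals.
Slc16a3 (chr11:120948817-120949066, plus strand): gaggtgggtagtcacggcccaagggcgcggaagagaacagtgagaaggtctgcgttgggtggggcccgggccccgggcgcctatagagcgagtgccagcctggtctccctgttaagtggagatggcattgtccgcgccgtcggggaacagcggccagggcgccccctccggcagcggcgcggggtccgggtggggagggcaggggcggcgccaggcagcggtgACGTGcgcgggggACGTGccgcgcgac
Hk2 (chr6:82774455-82774704, minus strand): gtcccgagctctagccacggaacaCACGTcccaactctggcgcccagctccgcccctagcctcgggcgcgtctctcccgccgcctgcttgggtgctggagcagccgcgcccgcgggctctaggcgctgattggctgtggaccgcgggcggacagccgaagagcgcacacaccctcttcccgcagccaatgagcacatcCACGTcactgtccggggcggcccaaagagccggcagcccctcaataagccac
Ldha (chr7:46845554-46845803, plus strand): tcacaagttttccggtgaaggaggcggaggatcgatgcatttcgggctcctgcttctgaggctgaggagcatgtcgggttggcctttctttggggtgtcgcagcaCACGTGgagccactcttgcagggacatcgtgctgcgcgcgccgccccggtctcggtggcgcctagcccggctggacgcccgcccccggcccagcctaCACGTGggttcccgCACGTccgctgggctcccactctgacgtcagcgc
Ldhb (chr6:142507958-142508207, minus strand): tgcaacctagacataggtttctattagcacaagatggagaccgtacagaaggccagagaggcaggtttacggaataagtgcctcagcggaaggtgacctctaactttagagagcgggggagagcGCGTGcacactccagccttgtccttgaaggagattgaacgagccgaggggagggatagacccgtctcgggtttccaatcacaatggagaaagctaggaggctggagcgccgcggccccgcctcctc
The Ldha window held 5 matches at 3 places, since the palindrome CACGTG is read on both strands, against 2 each in Slc16a3 and Hk2 and 1 in Ldhb. A further Ldha window, chr7:46846832-46847081, held 1 match. Of the lactate and hexokinase genes not shown, Slc16a1, which fell with palmitic acid in wild-type cells, held 4 matches. Hk1, which did not pass there, held 3 in a first window and 0 in another. RefSeq windows were matched for 33 of the 35 genes; Slc2a3 and Slc16a7 had none in the table. A core was present in 28 of the 33 genes (84.8%) and in 11226 of 27025 genes with a window (41.5%). The ACGTG core alone was in 16 of 33 members (48.5%) and 18.5% of all genes. The members' windows were also richer in G and C, with a median of 61.6% against 52.4%. A match describes the letters and does not show a bound site.

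In untreated wild-type astrocytes the most abundant transcripts of the set were Gapdh (glyceraldehyde-3-phosphate dehydrogenase), at 2259, 2522 and 2276 TPM, Eno1 (enolase 1), at 1141, 1216 and 1151 TPM, and Ldhb, at 1069, 1123 and 1141 TPM. Aldoa followed Ldhb closely, at 1041, 1107 and 1046 TPM, and the ranges of Ldhb and Aldoa overlap, while Eno1 lies above both. The scarcest were Slc16a3, at 1.78, 2.65 and 2.69 TPM, Pfkfb4 (a kinase and phosphatase that sets fructose-2,6-bisphosphate), at 4.93, 3.79 and 4.25 TPM, and Slc16a7, which ranged over 1.34–7.65 TPM. Ldha made up 35.3% ± 1.07 (SD, n = 3) of Ldha plus Ldhb. Pfkp, the platelet phosphofructokinase, made up 56.8% ± 0.629, Pfkm, the muscle form, 33.3% ± 0.494, and Pfkl, the liver form, 9.91% ± 0.266 of the 3 phosphofructokinase transcripts. Aldoc, the brain aldolase typical of astrocytes, made up 15.9% ± 0.517 of Aldoa plus Aldoc.

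**Figure D1:**
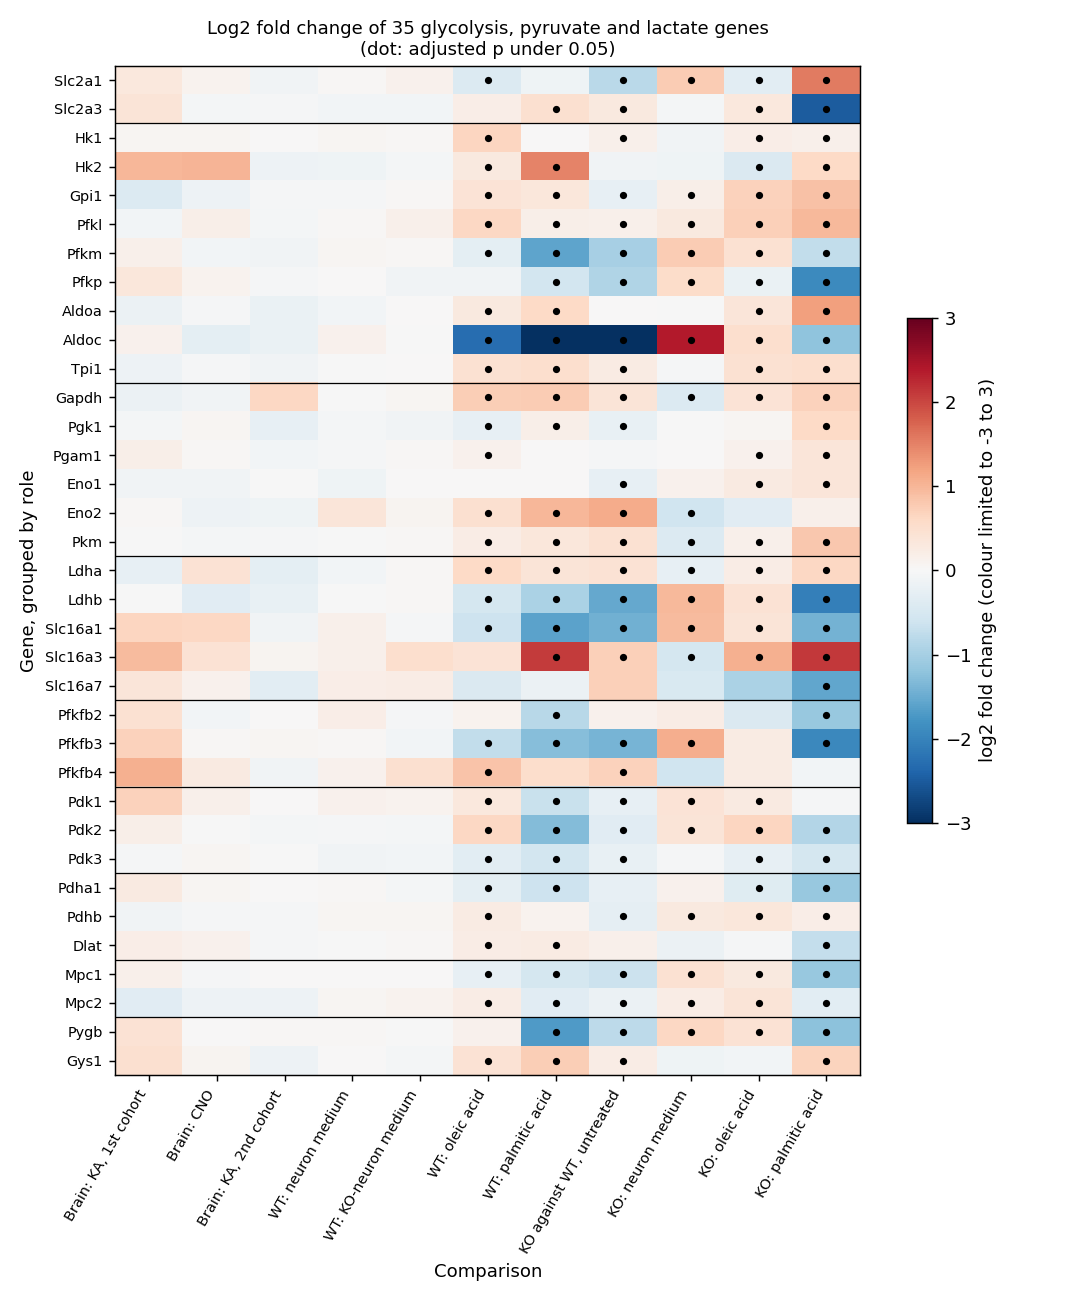
Log2 difference of each of the 35 genes (rows) in 11 comparisons (columns), coloured from lower to higher and limited at -3 and 3; a dot marks an adjusted p under 0.05. The 3 brain columns and the 2 wild-type conditioned medium columns hold no dot, while the fatty acid and genotype columns hold many.

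Palmitic acid, a saturated fatty acid, was compared with no treatment in wild-type astrocytes. The isoform pattern shifted: the astrocyte aldolase Aldoc, Ldhb, the lactate carrier Slc16a1 and Pfkm fell, while the hexokinase Hk2, the lactate carrier Slc16a3 and the main trunk enzymes Gapdh and Aldoa rose. In all, 14 of the 35 genes rose, 14 fell and 7 did not pass, beside 59.8% of all 16161 genes tested that passed (26.8% higher and 33.1% lower). The median log2 difference was 0.01 for the 35 genes and -0.08 for all genes.

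Hk2, the inducible hexokinase bound to mitochondria (chr6:82725025-82774454), was at 25.1, 26.5 and 21.4 TPM in untreated cells and 69.0, 67.7 and 74.1 TPM with palmitic acid. The log2 difference was 1.498 ± 0.13 (limma adjusted p = 1.375e-09). Hk1, the constitutive hexokinase, was at 60.5, 58.7 and 60.02 TPM beside 57.1, 62.5 and 59.0 TPM and did not pass the test. Among the aldolases, Aldoa rose from 1041–1107 to 1539.9–1693 TPM (0.60 ± 0.06). Aldoc (chr11:78322968-78327781) was at 189, 212 and 204 TPM in untreated cells and 18.6, 14.9 and 15.1 TPM with palmitic acid. It was the member with the largest fall, -3.57 ± 0.08 on the log2 scale (limma adjusted p = 8.335e-19), and its share of the aldolase transcripts was 0.996% ± 0.134. Pfkm fell from 132–141 to 41.7–47.8 TPM (-1.59 ± 0.06) and Pfkp from 219–243 to 140.3–170.2 TPM (-0.55 ± 0.08), while Pfkl rose slightly (0.19 ± 0.06).

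In the lower pathway, Gapdh rose from 2259, 2522 and 2276 to 4043, 3858 and 4077 TPM (0.76 ± 0.07). Pkm, the pyruvate kinase, rose by less (0.34 ± 0.06), as did Pgk1, phosphoglycerate kinase (0.17 ± 0.03), whereas Eno1 and Pgam1, phosphoglycerate mutase, did not pass. For lactate, Ldha rose from 589–622 to 773–818 TPM (0.40 ± 0.06) and Ldhb (chr6:142490249-142507957) fell from 1069, 1123 and 1141 to 604, 562 and 552 TPM (-0.95 ± 0.05). The Ldha share thus stood at 58.1% ± 1.43 with palmitic acid. Slc16a1 (chr3:104638668-104658462) was at 85.7, 95.1 and 98.2 TPM untreated and 30.4, 30.5 and 28.2 TPM with palmitic acid (-1.61 ± 0.11). Slc16a3 (chr11:120948480-120960868), the carrier typical of glycolytic cells, was at 1.78, 2.65 and 2.69 TPM untreated and 12.3, 13.0 and 14.9 TPM with palmitic acid (2.10 ± 0.19). Its share of the 2 carriers' transcripts was 2.47% ± 0.377 in untreated and 31.1% ± 3.09 in treated cells.

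Regulators and glycogen genes moved as well. Pfkfb3, which makes the phosphofructokinase activator fructose-2,6-bisphosphate, fell from 70.2, 77.5 and 74.4 to 32.9, 31.5 and 26.2 TPM (-1.27 ± 0.11). The 3 pyruvate dehydrogenase kinases of the set, which switch the complex off, fell: Pdk2 (-1.30), Pdk1 (-0.66) and Pdk3 (-0.55). Pdk4, the kinase of this family that is not in the set, rose (1.56 ± 0.14). The complex subunit Pdha1 (-0.62 ± 0.12) and both mitochondrial pyruvate carrier subunits, Mpc1 (-0.53 ± 0.07) and Mpc2 (-0.33 ± 0.06), also fell. Pygb, the brain glycogen phosphorylase that breaks glycogen down, was at 268, 294 and 294 TPM untreated and 91.6, 87.2 and 83.1 TPM treated (-1.70 ± 0.07). Gys1, the glycogen synthase, rose (0.75 ± 0.06). The 2 glycogen genes thus moved in opposite directions. Of the rest, Slc2a3 (0.49), Gpi1 (0.33), Tpi1 (0.50), Eno2 (0.99) and the complex subunit Dlat (0.24) rose and Pfkfb2 fell (-0.82). Slc2a1, Pfkfb4, Slc16a7 and the complex subunit Pdhb did not pass. Only the Dlat call was lost under any alternative run.

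**Figure D2:**
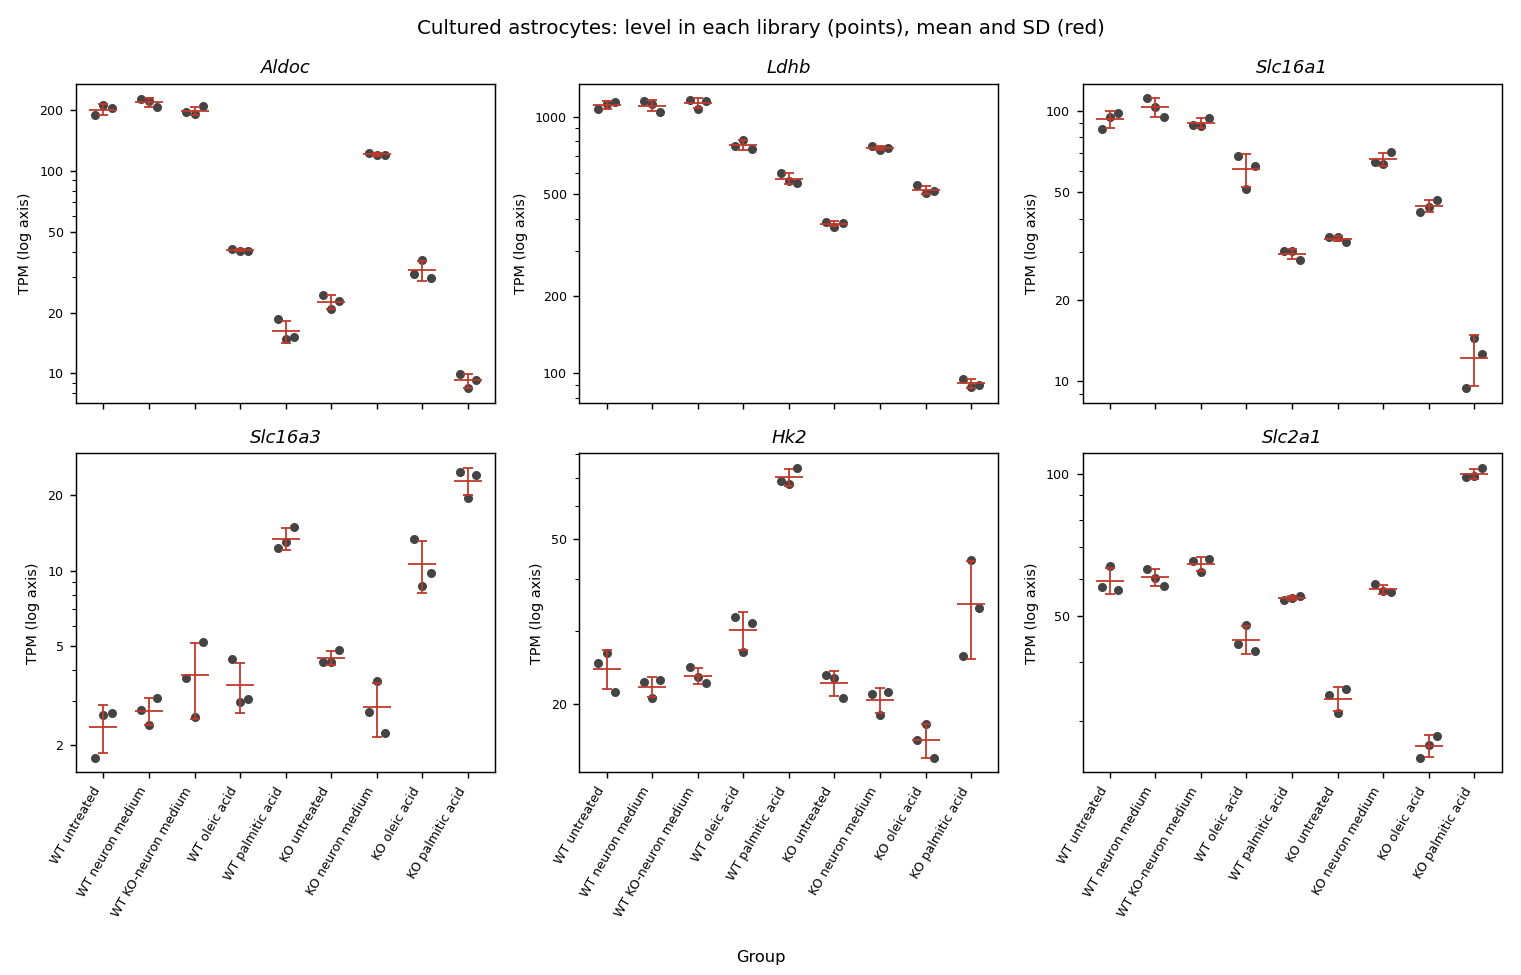
TPM on a log axis for Aldoc, Ldhb, Slc16a1, Slc16a3, Hk2 and Slc2a1 in each astrocyte library (points), with the group mean and SD in red. Aldoc and Ldhb sit lowest in APOE KO cells with palmitic acid and Slc16a3 sits highest there.

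Oleic acid, a longer monounsaturated fatty acid, gave another profile in wild-type astrocytes: 18 of the 35 genes rose, 10 fell and 7 did not pass, beside 59.8% of all 16161 genes tested that passed (31.2% higher and 28.6% lower). The median log2 difference was 0.22 for the 35 genes and 0.00 for all genes. Aldoc was at 41.3, 40.5 and 40.5 TPM against 189, 212 and 204 TPM untreated (-2.28 ± 0.08). Ldhb fell from 1069–1141 to 746–814 TPM (-0.52 ± 0.05) and Slc16a1 to 51.4–68.4 TPM (-0.61 ± 0.11). Ldha rose to 878–1001 TPM (0.60 ± 0.06), which put its share at 54.2% ± 0.907. Hk1 rose from 57.1, 62.5 and 59.0 to 90.6, 104 and 86.7 TPM (0.65 ± 0.06), Pfkl rose (0.63 ± 0.06), and Gapdh rose to 3675–4474 TPM (0.75 ± 0.07). Pdk2 rose from 50.8–54.1 to 76.9–90.2 TPM (0.62 ± 0.07). Slc16a3, at 4.41, 2.99 and 3.06 TPM, did not pass. Slc2a1, the glucose transporter GLUT1, fell from 56.7–63.7 to 42.1–47.9 TPM (-0.41 ± 0.06). Calls of small size for Aldoa, Pkm, Pgam1, Mpc2, Hk2, Pdha1, Dlat, Eno2, Mpc1 and Pdk1 were each lost under at least 1 of the alternatives run.

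Oleic and palmitic acid were set against each other directly in the same libraries; whether their doses matched is not given. In wild-type cells 19 genes were higher with oleic acid, 8 were lower and 8 did not pass, beside 58.2% of all 16161 genes tested that passed (32.4% higher and 25.8% lower). Pdk2 differed most, at 76.9, 90.2 and 77.8 TPM with oleic and 23.4, 20.4 and 18.9 TPM with palmitic acid (1.92 ± 0.07). Pygb, at 298–334 against 83.1–91.6 TPM, differed by 1.82 ± 0.07. Aldoc and Pfkm were higher with oleic acid (1.29 ± 0.08 and 1.29 ± 0.06), and Slc16a3 and Hk2 were lower (-1.69 ± 0.19 and -1.20 ± 0.13). Gapdh did not pass between the fatty acids (-0.02 ± 0.07).

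Untreated APOE KO astrocytes were compared with untreated wild-type astrocytes. Astrocyte aldolase, Ldhb, the lactate carrier Slc16a1 and the glucose transporter Slc2a1 were lower in the knockout cells. Xist and Ddx3y, given above, also differed between the genotypes, and their part was not tested. In all, 11 genes were higher, 17 lower and 7 did not pass, beside 44.9% of all 16161 genes tested that passed (23.9% higher and 21.1% lower), and the median log2 difference was -0.18 for the 35 genes and 0.05 for all genes. Aldoc was at 24.3, 20.8 and 22.7 TPM in the knockout cells and 189, 212 and 204 TPM in wild type (-3.10 ± 0.08, limma adjusted p = 8.69e-18). Ldhb was at 389, 373 and 383 TPM against 1069, 1123 and 1141 TPM (-1.54 ± 0.05). Slc16a1 was at 34.0, 34.3 and 32.9 TPM against 85.7, 95.1 and 98.2 TPM (-1.43 ± 0.11). Slc2a1 stood at 34.0, 31.2 and 35.1 against 57.7, 63.7 and 56.7 TPM (-0.81 ± 0.06), and Pfkm (-0.997 ± 0.06), Pfkp (-0.91 ± 0.08), Pfkfb3 (-1.39 ± 0.11), Pygb (-0.79 ± 0.07) and Mpc1 (-0.64 ± 0.07) were lower too. Ldha was higher (0.43 ± 0.06), with a share of 68.2% ± 0.431, as were Pkm (0.45 ± 0.06), Eno2, the neuronal enolase (1.11 ± 0.16), and Slc16a3 (0.71 ± 0.19). Calls for Hk1, Pfkl, Mpc2, Gpi1, Eno1, Gys1, Tpi1, Pdk1, Pdk3, Pfkfb4 and Slc2a3 were lost under at least 1 alternative.

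Medium conditioned by neurons was tested in both genotypes. In wild-type cells no member passed limma's test (0 of 35), beside 0.0371% of all 16161 genes tested that passed (0.0186% higher and 0.0186% lower). An unadjusted p under 0.05 was reached by 1 of the 35 members and by 1031 of the 16161 genes. Medium from APOE KO neurons also gave 0, beside 1.5% of all 16161 genes tested that passed (0.971% higher and 0.532% lower). Here 3 members and 1937 of the 16161 genes had an unadjusted p under 0.05. The 2 media set against each other gave 0, beside 1.42% of all 16161 genes tested that passed (0.965% higher and 0.452% lower). There 1 member and 2080 of the 16161 genes had an unadjusted p under 0.05. Aldoc was at 208–228 TPM with neuron-conditioned and 192–209.5 TPM with knockout neuron-conditioned medium, around the untreated range of 189–212 TPM. In APOE KO cells, neuron-conditioned medium gave 15 genes that rose, 5 that fell and 15 that did not pass, beside 31.2% of all 16161 genes tested that passed (18.7% higher and 12.6% lower). Aldoc was at 24.3, 20.8 and 22.7 TPM untreated and 123, 121 and 119.5 TPM with the medium (2.37 ± 0.08, limma adjusted p = 7.165e-15). Ldhb rose from 389, 373 and 383 to 769, 741 and 754 TPM (0.98 ± 0.05) and Slc16a1 from 32.9–34.3 to 63.6–70.4 TPM (0.95 ± 0.11). Slc2a1 (0.75 ± 0.06), Pfkm (0.75 ± 0.06), Pfkfb3 (1.08 ± 0.11) and Pygb (0.61 ± 0.07) rose, and Gapdh (-0.41 ± 0.07) and Pkm (-0.41 ± 0.06) fell. The direction of each of these was opposite to that of untreated knockout against untreated wild-type cells, but the 2 comparisons share the untreated knockout libraries. In the knockout cells mean Apoe was also higher with the medium (114.5 against 43.7 TPM untreated), as was mean Gfap (325 against 70.8 TPM). The part of what these 2 genes reflect was not tested. Calls for Gpi1, Slc16a3, Ldha, Mpc2 and Pfkl were lost under at least 1 alternative. Ldha's share was 47.9% ± 1.55 with the medium. The difference of response between genotypes passed for 15 genes, 12 positive and 3 negative, led by Aldoc at 2.25. This stands beside 18.5% of all 16161 genes tested that passed (11.6% higher and 6.95% lower). Under median-ratio scaling the split was 10 and 1, and the all-gene median went from -0.0085 to -0.0214. The shares are from the unscaled fit.

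**Figure D3:**
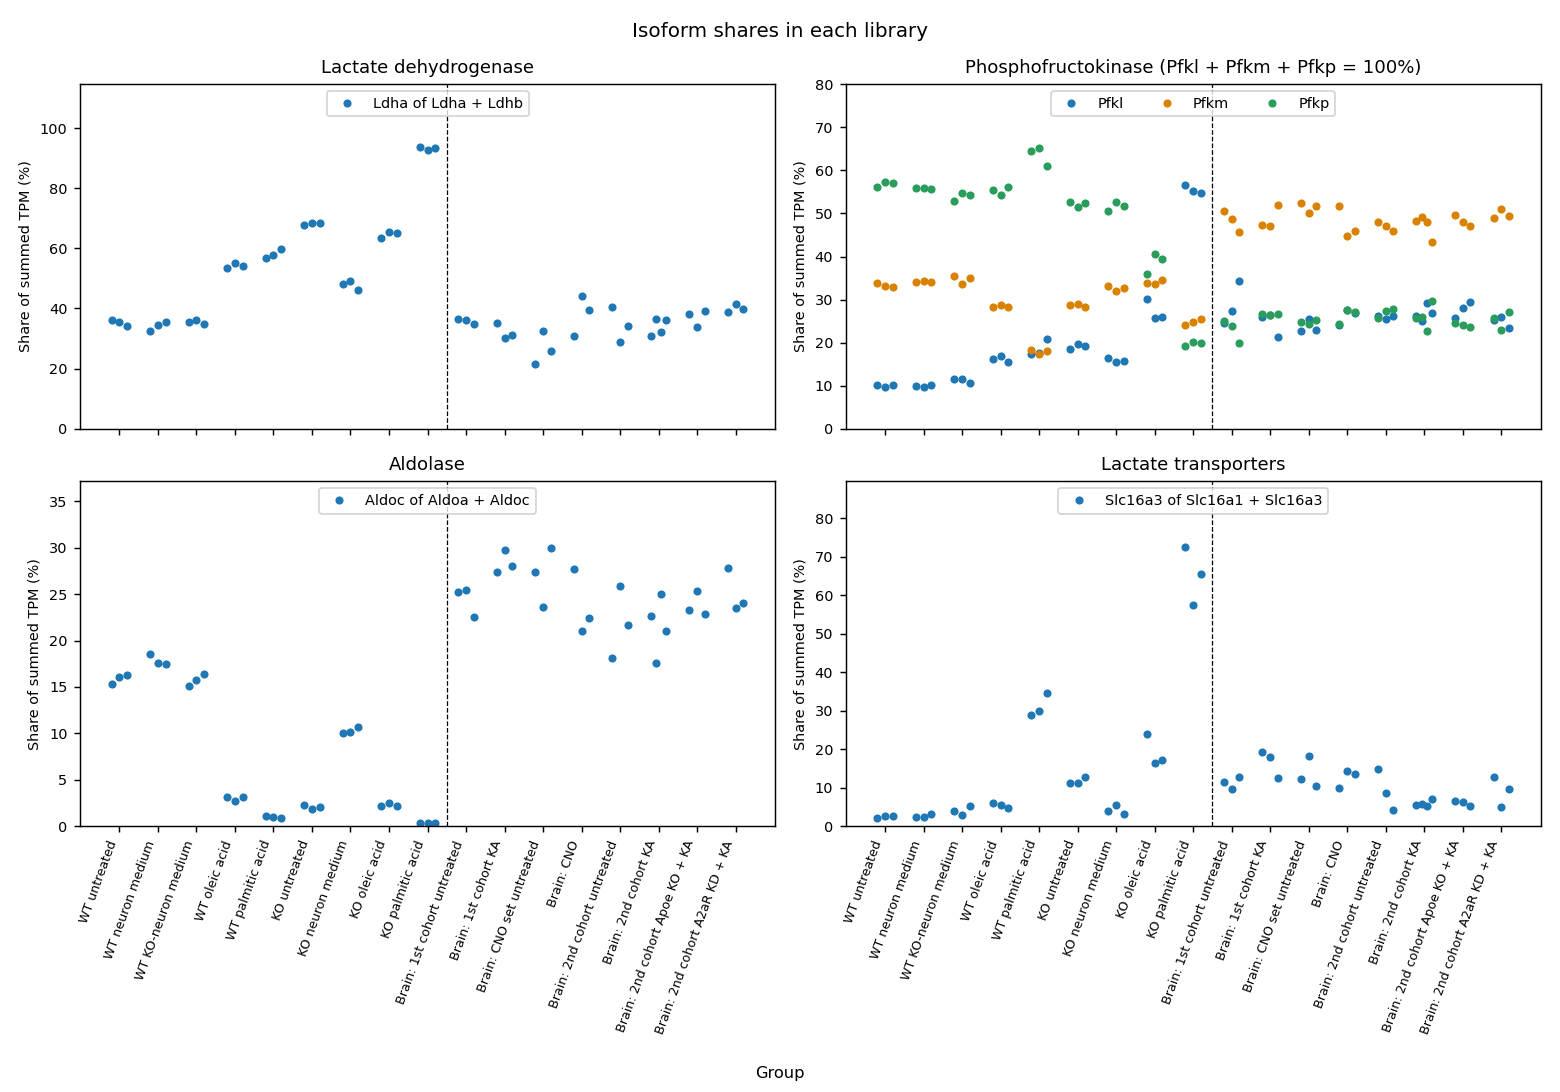
Isoform shares in percent of summed TPM for Ldha of Ldha plus Ldhb, the 3 phosphofructokinases, Aldoc of Aldoa plus Aldoc and Slc16a3 of Slc16a1 plus Slc16a3, by group; a dashed line separates astrocytes from brain. In APOE KO cells with palmitic acid Ldha reaches 93.3% and Slc16a3 65.2%.

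Fatty acids were also given to APOE KO astrocytes. With palmitic acid 16 genes rose, 16 fell and 3 did not pass, beside 75.3% of all 16161 genes tested that passed (19.9% higher and 55.4% lower). The median log2 difference was -0.03 for the 35 genes and -0.47 for all genes. Median-ratio scaling put the latter at -0.10, with 5604 of 12039 called genes higher. The member split above is from the unscaled fit. With the scaling, Eno2 (0.67) and Pdk1 (0.46) also passed as higher, Dlat, Slc16a7 and Pdk3 lost their calls, and Mpc2 reversed. Ldhb was at 389, 373 and 383 TPM untreated and 95.2, 88.2 and 89.9 TPM with palmitic acid (-2.06 ± 0.05, limma adjusted p = 3.119e-19), and Ldha rose from 802–835 to 1143–1407 TPM (0.62 ± 0.06). The Ldha share was 93.3% ± 0.412, the highest of the 17 groups. Glucose transporters moved apart: Slc2a1 (chr4:119108711-119137983) was at 34.0, 31.2 and 35.1 TPM untreated and 98.4, 99.0 and 103 TPM treated (1.55 ± 0.06), while Slc2a3, the GLUT3 transporter typical of neurons (chr6:122727809-122801640), was at 21.4, 20.1 and 22.6 and 2.53, 3.12 and 3.20 TPM (-2.50 ± 0.09). Pfkp fell from 118–128 to 30.8–33.3 TPM (-1.91 ± 0.08) and Pfkl rose to 84.5–98.2 TPM (0.98 ± 0.06), so that Pfkl made up 55.5% ± 0.981 of the phosphofructokinase transcripts. Aldoa rose from 1054–1089 to 2291–2759.9 TPM (1.22 ± 0.06) and Aldoc fell (-1.21 ± 0.08). Pkm (0.81 ± 0.06), Gapdh (0.70 ± 0.07) and Gpi1, glucose-6-phosphate isomerase (0.88 ± 0.07), rose. Slc16a3 rose from 4.29, 4.31 and 4.81 to 24.9, 19.6 and 24.2 TPM (2.12 ± 0.19) and Slc16a1 fell to 9.46, 14.5 and 12.7 TPM (-1.41 ± 0.11). Pfkfb3 (-1.93 ± 0.11), Pdha1 (-1.14 ± 0.12), Mpc1 (-1.13 ± 0.07) and Pygb (-1.23 ± 0.07) fell. The 35 genes together summed to 14502 to 16972 TPM, beside 10355 to 10535 TPM untreated. The astrocyte marker sum in these libraries, given above, was lower than in any other astrocyte group, Gfap was at 2.36 TPM on average, and the part of cell mix was not tested. Calls for Hk1, Slc16a7, Mpc2, Pdk3 and Dlat were lost or reversed under at least 1 alternative.

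With oleic acid 22 genes rose and 5 fell in APOE KO cells, and 8 did not pass, beside 41.8% of all 16161 genes tested that passed (21.7% higher and 20.1% lower). Pfkl (0.71 ± 0.06), Gpi1 (0.69 ± 0.07), Pdk2 (0.64 ± 0.07), Tpi1, triosephosphate isomerase (0.46 ± 0.07), and Slc16a3, at 13.4, 8.65 and 9.77 TPM (1.07 ± 0.19), were among those that rose. Aldoc was at 30.9, 36.4 and 29.8 TPM (0.49 ± 0.08). The higher microglial marker sum of these libraries, given above, moved with these changes, and its part was not tested. Calls of small size for Hk1, Hk2, Pkm, Pgam1, Pfkp, Slc2a3, Ldha, Eno1, Pdk1, Pdk3 and Pdha1 were lost under at least 1 alternative. Between the fatty acids, 17 genes were higher with oleic acid, 13 were lower and 5 did not pass. This stands beside 69.7% of all 16161 genes tested that passed (53.7% higher and 16% lower). Under median-ratio scaling the split was 11 higher and 18 lower, and the all-gene median went from 0.41 to 0.06. The shares are from the unscaled fit and do not apply to that split. Ldhb (2.50 ± 0.05) and Slc2a3 (2.82 ± 0.09) stood higher with oleic acid, and Slc2a1 (-1.88 ± 0.06) lower.

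The response to each fatty acid was compared between genotypes by the interaction term, the knockout change less the wild-type change. For palmitic acid the term was positive for 14 genes and negative for 9, beside 57.6% of all 16161 genes tested that passed (14.3% higher and 43.2% lower). Under median-ratio scaling the split was 21 and 5, and the all-gene median went from -0.35 to 0.01. The shares above are from the unscaled fit and do not apply to that split. Gys1, Hk1, Mpc2, Pdhb, Pdk3, Slc16a1 and Tpi1 also passed with the scaling, all with positive terms. In the unscaled fit Slc2a1 (1.67 ± 0.08) and Aldoc (2.36 ± 0.12) had the largest positive terms. Slc2a3 (-2.99 ± 0.13) and Pfkp (-1.37 ± 0.11) had the largest negative ones. For Slc2a3 the wild-type change was 0.49 and the knockout change -2.50. Aldoc fell in both genotypes, by less in the knockout cells, whose untreated level was already lower. For oleic acid 10 terms were positive and 6 negative, beside 29.6% of all 16161 genes tested that passed (13.8% higher and 15.8% lower), with Aldoc at 2.77 ± 0.12. Under median-ratio scaling the terms of Eno2, Mpc1, Pfkfb3 and Pdha1 for palmitic acid no longer passed, nor did those of Gapdh, Ldha, Gpi1, Eno1 and Pygb for oleic acid.

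In the first KA cohort no member passed limma's test (0 of 35), beside 0.183% of all 15331 genes tested that passed (0.157% higher and 0.0261% lower). An unadjusted p under 0.05 was reached by 4 of the 35 members and by 2069 of the 15331 genes. The median log2 difference was 0.15 for the 35 genes and 0.25 for all genes. Hk2 was at 2.13, 2.57 and 3.29 TPM in untreated and 6.43, 7.29 and 5.12 TPM in KA brain (0.99 ± 0.23, limma adjusted p = 0.1276). Pfkfb4 (8.08, 6.60 and 4.16 against 14.8, 16.1 and 10.9 TPM, 1.06 ± 0.28), Slc16a3 (0.96 ± 0.28) and Slc16a1 (0.63 ± 0.25) were the other 3. Without untreated library 3, Hk2 passed (1.11, adjusted p = 0.0479). That library stands apart, with mitochondrial transcripts at 9.01% of TPM against 15.9% and 16.1% in the other untreated libraries. Microglial markers summed to 439 to 473 TPM untreated and 1086 to 2656 TPM with KA, and astrocyte markers to 737 to 1341 and 1750.0 to 3276 TPM. Choroid plexus markers summed to 138 to 1102 TPM untreated and 1509 to 2272 TPM with KA. The part of these cell types in the Hk2 values was not tested.

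In the CNO cohort 0 of 35 passed (limma), beside 3.7% of all 15453 genes tested that passed (3.46% higher and 0.233% lower). An unadjusted p under 0.05 was reached by 3 of the 35 members and by 2481 of the 15453 genes. Hk2 was at 1.59, 3.21 and 3.02 TPM untreated and 4.93, 6.32 and 7.56 TPM with CNO (1.03 ± 0.23, limma adjusted p = 0.06007). Ldha was at 238, 319 and 248 and 322, 408 and 355 TPM (0.43 ± 0.14) and Slc16a1 at 19.7, 16.1 and 19.1 and 23.3, 28.8 and 35.1 TPM (0.62 ± 0.16). The fit above used no replicate block. With the replicate numbers as a block, Hk2 (limma adjusted p = 0.0169), Ldha (0.0170) and Ldhb (-0.34 ± 0.06, 0.0297) passed. No label says that these numbers pair the libraries, so which fit is right is not known. Without CNO library 1, Slc16a1 passed (0.77, adjusted p = 0.0356). Astrocyte markers summed to 1155 to 1299.6 TPM untreated and 3275 to 3665 TPM with CNO, and microglial markers to 401 to 461 and 976 to 1224 TPM. Choroid plexus markers summed to 51.0 to 238 TPM untreated and 11.1 to 720 TPM with CNO. The part of these cell types was not tested.

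**Figure D4:**
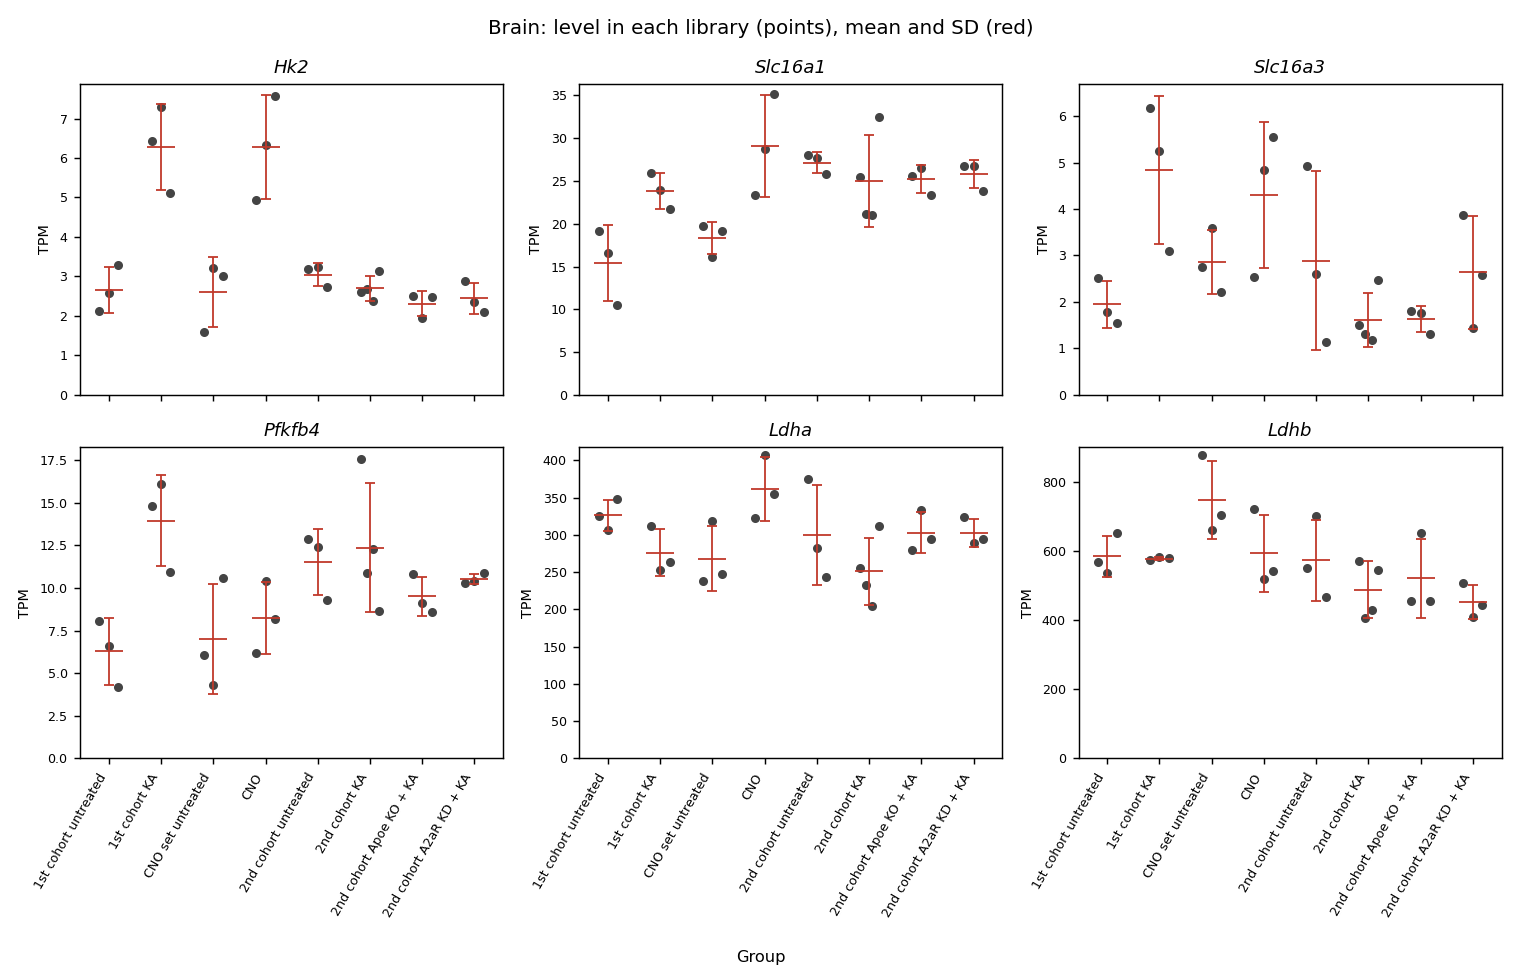
TPM per library of Hk2, Slc16a1, Slc16a3, Pfkfb4, Ldha and Ldhb in the brain groups, axes from 0. Hk2 lies higher in the KA libraries of the first cohort and in the CNO libraries, and its untreated and KA ranges overlap in the second KA cohort; the difference between cohorts was not tested.

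In the second KA cohort 0 members passed for KA against untreated, for APOE knock out with KA against KA, and for the libraries labelled A2aR knock down with KA against KA, with 2 at an unadjusted p under 0.05 in each (edgeR) and 0 with DESeq2. The first stands beside 0.0558% of all 23318 genes tested that passed (0.0257% higher and 0.03% lower). The second stands beside 0.112% of all 23318 genes tested that passed (0.03% higher and 0.0815% lower). The third stands beside 0.0386% of all 23318 genes tested that passed (0.0172% higher and 0.0214% lower). In the same order, 1566, 2175 and 2156 of the 23318 genes had an unadjusted p under 0.05. Hk2 was at 3.19, 3.24 and 2.72 TPM untreated and 2.62, 2.67, 2.37 and 3.14 TPM with KA. Aldoc was at 654, 694 and 712 TPM untreated, 542, 535, 631 and 637 TPM with KA, 719, 691 and 629 TPM in the knock out and 743, 583 and 621 TPM in the libraries labelled knock down. The untreated libraries had Xist at 121.6 to 145.1 TPM and the KA libraries at 0.27 TPM or below, and for KA against untreated brain treatment and sex cannot be told apart. Choroid plexus markers summed to 439 to 1962 TPM untreated and 33.3 to 2080 TPM with KA, and their part was not tested.

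Gapdh itself is uncertain in the second cohort. It read 29.8–41.4 TPM untreated and 435, 47.9, 50.2 and 40.5 TPM with KA, beside 2762 to 5134 TPM in the other brain tables. In the second cohort's data, 83 rows near-identical to Gapdh held 2187 to 2477 TPM, 83.9% to 98.7% of the sum, and the sum was 2237 to 2706 TPM. A copy also held 56.9% to 69.7% of the Mpc1 sum there. The like sum of Gapdh and its copies was 3759 to 4606 TPM in the first KA cohort and 5540 to 6778 TPM in the CNO cohort. Copies held 22.5% to 27.4% and 23.9% to 26.1% of it, and 27.6% to 30.0% in astrocytes. Adding the copies to their gene changed no count of called members in the second cohort. In astrocytes it ended the Pgam1 calls for oleic acid in both genotypes.

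Neighbouring pathways, from lists drawn up for this set, gave these counts, which stand beside the share of all genes called: 59.8% with palmitic and with oleic acid in wild-type cells, 44.9% between genotypes, 31.2% with neuron-conditioned medium and 75.3% with palmitic acid in APOE KO cells. No list was tested against these shares. With palmitic acid in wild-type cells, of 8 pentose phosphate genes 5 rose and 0 fell, led by Pgd, 6-phosphogluconate dehydrogenase (316 ± 30.1 TPM against 111 ± 4.32, 1.49 ± 0.06), and Taldo1, transaldolase (1.45 ± 0.07). With oleic acid 6 rose and 2 fell, G6pdx, the first enzyme of the pathway, among the first (129.6 ± 6.35 TPM against 55.4 ± 2.92, 1.21 ± 0.06). Of 14 other pyruvate genes 3 rose and 8 fell with palmitic acid: Pcx, pyruvate carboxylase, which in brain is an astrocyte enzyme, fell (24.6 ± 0.663 TPM against 129 ± 6.62, -2.34 ± 0.08) and Pck2, mitochondrial phosphoenolpyruvate carboxykinase, rose (2.09 ± 0.10). Of 14 tested glycogen genes 2 rose and 8 fell, Ppp1r3c, a glycogen-targeting phosphatase subunit, most (-2.95 ± 0.08). Of 12 hypoxia-induced genes outside glycolysis 3 rose and 6 fell with palmitic acid in wild type, 1 rose and 7 fell with oleic acid, 6 rose and 6 fell with palmitic acid in APOE KO cells, and in untreated knockout against wild type 0 were higher and 8 lower, Egln3, an oxygen-sensing hydroxylase, among them (-2.03 ± 0.09). With neuron-conditioned medium in knockout cells 7 rose and 0 fell. In brain, 2 genes of these lists passed, both in the CNO cohort: Pgam2 (0.83 ± 0.17) and Ppp1r3c (0.65 ± 0.10).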

How the data were processed

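TPM and counts were deposited by the authors; HISAT2, StringTie, RSEM and build mm10 are named in the submitters' processing notes, with no roles or versions. Deposited TPM values, per the file headers and the values, summed to 978422 to 999897 per library; the deposited counts of the second KA cohort summed to 68760648 to 76643829. Depth of the TPM-only tables is unknown. Members and lists were chosen with earlier results of these data known. Genes with at least 1 TPM in at least 3 libraries were tested with limma 3.58.1 (trend) on log2(TPM + 1) without a replicate block, and the second KA cohort with edgeR 4.0.16 (TMM, quasi-likelihood), in R 4.3.3, with Benjamini-Hochberg adjustment over all genes. Astrocyte groups shared one fit. Same-numbered CNO libraries deviated weakly together (correlations of 0.12 to 0.24), but no label says that the numbers pair them. Elsewhere same-numbered libraries did not deviate together. All 35 genes are named; values in full went to the most abundant and, per comparison, to members that passed, by smallest p, and pathway genes named are among the up to 4 with the smallest p. Some roles and observations were picked after values were seen. Tests were checked on simulated data. Alternatives were another pseudocount, no filter, median-ratio scaling, DESeq2 1.42.0, a replicate block and leaving out libraries; adding copies (BLAST 2.17.0, 95% identity over 80% of the copy) and leaving out the APOE KO palmitic acid group were chosen after seeing the data. Python 3.11.15 drew the figures. Gene coordinates are GENCODE M21, GRCm38.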

Additional observations from a re-analysis of the deposited data

Results flagged for a closer look

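Gapdh in KA library 1 of the second cohort (435 TPM) and Slc16a7 in KA library 4 of that cohort (7.47 TPM) were flagged as apart from the other 3 libraries of their group. Those read 40.5 to 50.2 TPM for Gapdh and 8.83 to 9.10 TPM for Slc16a7, so the Slc16a7 gap was small. In all, 35 such groups were tested, and chance gives about 1 in 20. The changes below differed between APOE KO and wild-type astrocytes by limma's interaction term, given on the log2 scale as the knockout change less the wild-type change. For neuron-conditioned medium the term was positive for Slc2a1 (0.73), Pfkl (0.26), Pfkm (0.69), Pfkp (0.55), Aldoc (2.25), Ldhb (0.99), Slc16a1 (0.80), Pfkfb3 (1.05), Pdk2 (0.42), Pdhb (0.22), Mpc1 (0.43) and Pygb (0.57). It was negative for Gapdh (-0.40), Eno2 (-0.95) and Pkm (-0.39). For oleic acid the term was positive for Gpi1 (0.27), Pfkm (0.76), Aldoc (2.77), Pgk1 (0.32), Eno1 (0.26), Ldhb (0.96), Slc16a1 (1.00), Pfkfb3 (0.97), Mpc1 (0.55) and Pygb (0.32). It was negative for Hk1 (-0.46), Hk2 (-0.73), Gapdh (-0.33), Eno2 (-0.81), Ldha (-0.38) and Gys1 (-0.53). For palmitic acid the term was positive for Slc2a1 (1.67), Gpi1 (0.55), Pfkl (0.79), Pfkm (0.85), Aldoa (0.63), Aldoc (2.36), Pgk1 (0.43), Pgam1 (0.34), Eno1 (0.35), Pkm (0.47), Ldha (0.23), Pdk1 (0.64), Pdk2 (0.42) and Pygb (0.47). It was negative for Slc2a3 (-2.99), Hk2 (-0.91), Pfkp (-1.37), Eno2 (-0.83), Ldhb (-1.10), Pfkfb3 (-0.66), Pdha1 (-0.52), Dlat (-0.94) and Mpc1 (-0.60). Some of these terms lost their call under other settings. Under median-ratio scaling this held for Pfkl, Pdhb, Pkm and Gapdh with neuron-conditioned medium. For oleic acid it held for Pygb (adjusted p = 0.0528), Gpi1 (0.1485), Gapdh (0.265), Ldha (0.1551) and Eno1 (0.1843), and of these Pygb, Gpi1, Gapdh and Eno1 were also lost on leaving out at least 1 library. For palmitic acid it held for Eno2, which went to -0.38, Mpc1 to -0.14, Pfkfb3 to -0.25 and Pdha1 to -0.06. Ldha with palmitic acid was lost without the filter, with only the groups compared and on leaving out 1 of several libraries.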

How the results depend on the processing

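Results of members that passed in the main fits were recomputed under each alternative. Of these, 3566 were the same, 231 lost their call (143 on leaving out a library, 88 otherwise) and 4 reversed. Members that did not pass in the main fits are outside this tally. Some of them passed under an alternative, among them Pdha1 between genotypes and Hk1 in the palmitic acid interaction, both under median-ratio scaling. The 4 reversed under median-ratio scaling: Mpc2 with palmitic acid in APOE KO cells (0.20), and oleic against palmitic acid in those cells for Pdk1 (-0.16), Pdhb (-0.36) and Pdk3 (-0.19). That scaling moved the all-gene median from -0.47 to -0.10 for palmitic acid in APOE KO cells and from 0.25 to -0.0012 in the first KA cohort; with it 5604 of 12039 called genes were higher for palmitic acid in APOE KO cells, against 3222 of 12168. The split for neuron-conditioned medium by genotype went from 12 and 3 to 10 and 1. Members called, on leaving out each library, ranged from 0 to 1 in the first KA cohort and in CNO, 23 to 26 for oleic and 27 to 28 for palmitic acid in wild-type cells, 25 to 26 between them, 21 to 27 for genotype, 18 to 19, 22 to 25 and 30 to 32 for medium, oleic and palmitic acid in APOE KO cells, 28 to 31 between the fatty acids there, and 13 to 16, 13 to 16 and 22 to 24 for the 3 interactions. The replicate block gave 3 called members in CNO and 928 called genes against 571; it changed no other count of called members by over 1.5 times. All-gene calls in the second cohort were 153, 327 and 246 with DESeq2 against 13, 26 and 9, while members called stayed at 0. All-gene calls in the first KA cohort were 44 with a pseudocount of 0.1 and 2 without the filter or with the block, against 28, and in CNO 197 without the filter. For A2aR knock down against KA no replicate block was run, because these groups share only replicate number 4. Depth of the TPM tables is unknown, so calls near a TPM of 1 have no stated counting error.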

Other observations

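Chosen after their values were seen, 5 genes outside the set are given here. With palmitic acid in APOE KO astrocytes 6 of 12 hypoxia-induced genes rose and 6 fell. Among them Hilpda, a lipid-droplet protein induced by hypoxia, rose (1.78 ± 0.10 on the log2 scale), while Egln3 (-1.68 ± 0.09) and Car9, a carbonic anhydrase (-1.55 ± 0.18), fell. With oleic acid Pdk4, the starvation-induced pyruvate dehydrogenase kinase, rose in both genotypes (1.34 ± 0.14 in wild-type and 1.00 ± 0.14 in knockout cells, limma). Hk3, a hexokinase typical of myeloid cells, was higher with medium from APOE KO neurons than untreated in wild-type cells (4.32 ± 0.553 TPM against 2.25 ± 0.255, 0.71 ± 0.14), where none of the 35 genes passed.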
